A study of Mus musculus with 6 samples.

Results

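The genes of cholesterol synthesis and their regulators, the sterol regulatory element-binding proteins (SREBPs), were followed in RNA of the mouse duodenum. The set was a list of 30 gene names, chosen by function and matched by name to the deposited tables. They matched 31 rows of 23699 gene models, since Hmgcs1 had 2 rows. Of the 30 genes, 29 passed the filter on low values, an FPKM (fragments per kilobase of transcript, scaled to library depth) of at least 0.5 in at least 3 libraries. No change between the groups passed the test in any of the 29, and mutant 3 and control 2 stood apart from the other libraries in most of them.

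Groups of 3 samples each from 6-week-old mice on a mixed background were compared, with RNA from the 2 cm of duodenum next to the stomach. The 3 controls were Nkx2.2flox/+ and have 1 floxed allele, with no Cre named. The 3 mutants were Nkx2.2flox/flox;Villin-Cre/+, in which Cre is driven by the promoter of villin, a gene of the intestinal epithelium. Mutant 3 also carried Rosa26Tomato/+, a reporter allele. Nkx2-2 is a transcription factor of enteroendocrine cells, which are a small share of the epithelium. Nothing in the labels states that the samples were separate animals, so the p-values below reflect only how far these samples spread.

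Cholesterol is built from acetyl-CoA through mevalonate, the isoprenoid pyrophosphates, squalene and lanosterol. When sterols in the endoplasmic reticulum run low, the escort protein Scap carries the SREBP precursors to the Golgi, where proteases release the active factors. When sterols are plentiful, the Insig proteins hold Scap and the SREBPs back. SREBP-2, from Srebf2, acts mainly on the genes of sterol synthesis and SREBP-1c, from Srebf1, mainly on those of fatty acid synthesis. The small intestine both absorbs cholesterol and makes it, and intestinal sterol synthesis is known to take place in crypt as well as villus cells.

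RefSeq promoters (GRCm38.p6, 250 bases before to 50 after the start) were found for 24 of the 30 genes, with Sc4mol matched under its other name Msmo1. Fdps, Fdft1, Sqle, Stard4, Scd1 and Scd2 had no entry. A core of the sterol response element, TCACNCCAC, was searched on both strands, as were the NF-Y motif CCAAT and the E-box CACGTG, and none of the motifs contains another. TCACNCCAC occurred in 1 of 24 promoters (4.2%), that of Hmgcs1, and in 1.44% of 27025 genes' promoters. CCAAT occurred in 20 of 24 (83.3%) against 41.06% of all, and CACGTG in 5 of 24 (20.8%) against 8.09%, those of Hsd17b7, Sc5d, Dhcr7, Insig1 and Scap. A match is a run of letters and does not show binding.

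The 150 bases before the start are shown for Hmgcs1, which holds the sterol element core, for Mvd and Cyp51, which had the smallest unadjusted p-values, and for Insig1, which holds an E-box. They lie at chr13:119690201-119690350 on the plus strand, chr8:122443423-122443572 on the minus strand, chr5:4104698-4104847 on the minus strand and chr5:28071262-28071411 on the plus strand. Each is printed 5′ to 3′ in the direction of its gene, with matches to the 3 motifs on either strand in capitals (ATTGG is CCAAT read from the other strand).
Hmgcs1: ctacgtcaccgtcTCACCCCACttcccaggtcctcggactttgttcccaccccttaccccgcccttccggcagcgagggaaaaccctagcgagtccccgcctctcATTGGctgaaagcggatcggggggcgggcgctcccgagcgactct
Mvd: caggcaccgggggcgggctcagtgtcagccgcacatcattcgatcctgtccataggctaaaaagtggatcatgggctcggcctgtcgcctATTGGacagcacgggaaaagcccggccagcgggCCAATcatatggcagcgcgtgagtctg
Cyp51: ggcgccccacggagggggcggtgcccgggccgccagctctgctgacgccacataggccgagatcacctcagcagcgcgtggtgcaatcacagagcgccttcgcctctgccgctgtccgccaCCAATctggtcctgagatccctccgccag
Insig1: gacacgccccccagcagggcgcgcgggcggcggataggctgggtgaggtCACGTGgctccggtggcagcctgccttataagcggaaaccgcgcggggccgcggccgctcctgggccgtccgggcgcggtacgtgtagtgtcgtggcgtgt

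Hmgcs1, the cytosolic HMG-CoA synthase, has no usable level in these data. Both of its gene models lie on stretches of chromosome 13 that mm9 does not place (13_random, 114710 to 132325 and 308620 to 326235), and both were listed at 0 in all 6 libraries. The same held for every gene model on such stretches, 143 of 143 (100%), against 4740 of 23556 models elsewhere (20.1%). The promoter stretch printed for Hmgcs1 has 2 exact copies on unplaced stretches of mm9 and 0 on its chromosomes, while those of Mvd, Cyp51 and Insig1 each have 1 copy on a chromosome and 0 on unplaced stretches. A 0 for Hmgcs1 therefore gives no information on its transcript, and no comparison was made for it.

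**Figure D1:**
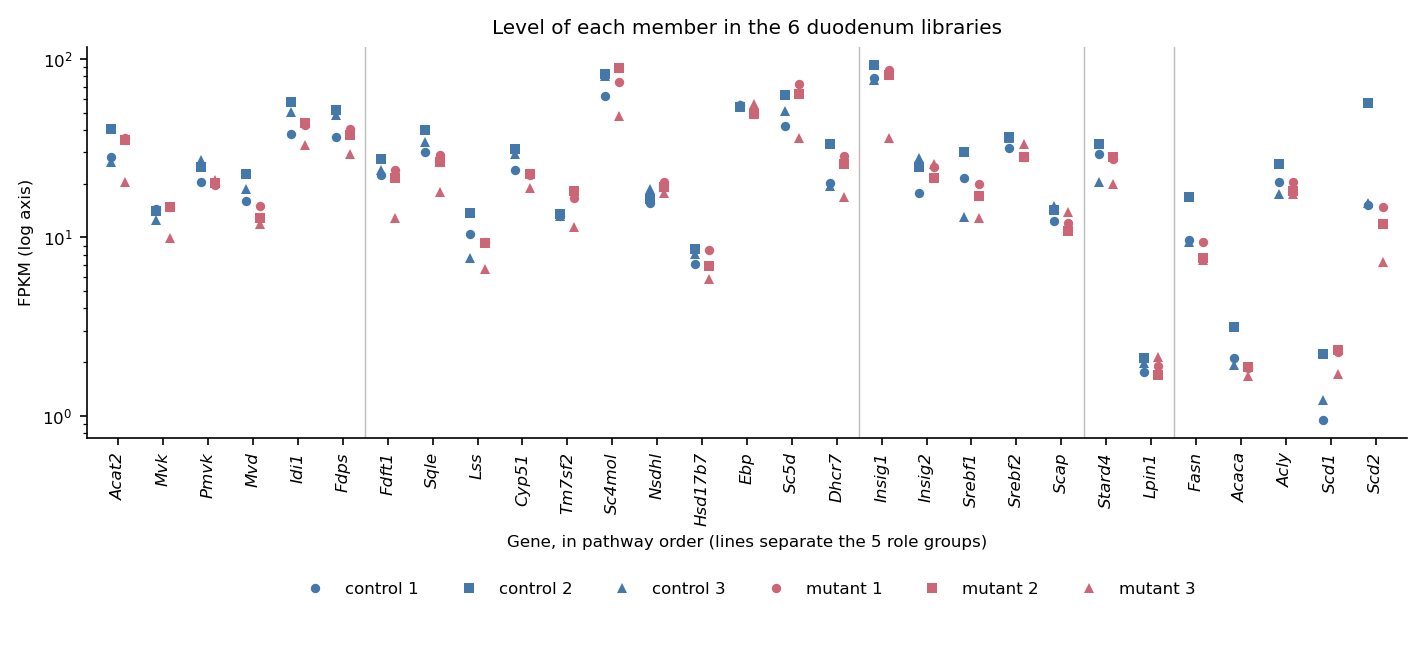
The level of each of the 29 measured genes in the 6 libraries, in FPKM on a log axis, with genes in pathway order and 1 marker per library. Values run from 0.947 FPKM (Scd1 in control 1) to 93.0 FPKM (Insig1 in control 2), and the markers of the 2 groups lie among each other in most genes.

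The genes of sterol synthesis were expressed well above the filter. In controls the highest mean levels per length were those of Insig1 at 82.8 FPKM, Sc4mol at 74.8 FPKM, Ebp at 54.9 FPKM and Sc5d at 51.9 FPKM (n = 3). The lowest were Scd1 at 1.47 FPKM, Lpin1 at 1.94 FPKM and Acaca at 2.39 FPKM. Among the controls the coefficient of variation ran from 1.6% in Ebp and Tm7sf2 to 81.6% in Scd2. The plot of levels by gene shows these ranges. The depth was 20.9 to 26.1 M fragments per library, rebuilt from the deposited intervals. The 22 members with a single isoform rested on 114 fragments (Scd1) to 6465 fragments (Scd2) per library, which sets counting error alone.

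Across the set, the mutant minus control change on the log2(FPKM + 0.5) scale was below 0 in 24 of 29 genes, where 55.8% of the 13596 genes tested were, and above 0 in Tm7sf2, Nsdhl, Sc5d, Insig2 and Scd1. The median change was -0.17, against -0.02 over all genes tested. None of the 29 passed limma's moderated test at a Benjamini-Hochberg adjusted p of 0.05, which 3 of all genes tested passed (0.0221%), and the smallest adjusted p among them was 0.9991. At an unadjusted p under 0.05, 3 were lower in mutants (Mvd, Cyp51 and Sqle), where 1.63% of all genes tested were, and 0 were higher, where 1.80% were. With the replicate number as a block, 0 of the 29 passed, where 22 of all genes did (0.162%), and the smallest adjusted p was 0.4927. At an unadjusted p under 0.05 in that fit, 5 were lower in mutants (Mvd, Cyp51, Sqle, Lss and Pmvk) and 0 were higher. Of the 13596 genes tested, 919 were under it in either direction. They were not split by direction, so the 5 lower members have no share of their own direction beside them.

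All 3 mutants lay below all 3 controls in 5 of the 29, namely Mvd, Sqle, Cyp51, Acaca and Scd2, where 3.71% of all genes tested did. All 3 mutants lay above the controls in 0 of the 29, where 4.05% of all genes did. With 1 library fewer, groups overlap less often in any gene, so each count has its own share over all genes. The lower members numbered 10 without control 1 (10.2% of all genes), 10 without control 3 (9.47%) and 8 without mutant 1 (6.54%). They numbered 9 without mutant 3 (21.2%), 5 without control 2 (4.99%) and 5 without mutant 2 (4.56%). The higher members numbered 5 without mutant 3 (10.9%), 1 without control 2 (8.79%), 1 without control 3 (11.1%), and 0 without control 1 (6.04%), mutant 1 (6.75%) or mutant 2 (7.47%). The sign of the change was the same in every setting tried in 16 of the 29, among them all 5 of these, and differed in at least 1 setting in 13, among them Insig1, Srebf1 and Sc5d. The plot of changes by gene gives each estimate with its interval.

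**Figure D2:**
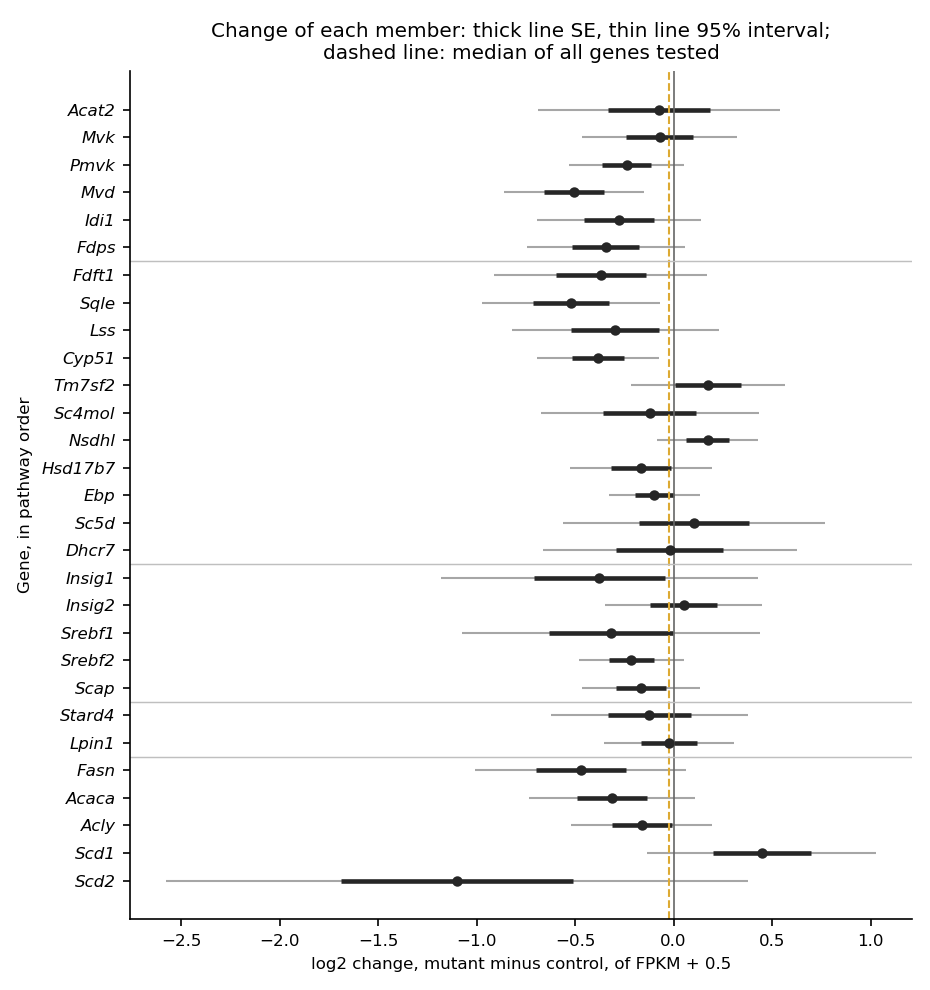
The log2 change of each of the 29 genes, mutant minus control, of FPKM + 0.5, in pathway order, with the standard error as a thick line and the 95% interval as a thin line; the dashed line is the median of all genes tested. The intervals of Mvd, Sqle and Cyp51 lie below 0, and those of the other 26 include 0.

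The enzymes up to farnesyl pyrophosphate are the first of the pathway. All 6 measured genes among them had a lower mean in mutants, with a median change of -0.26, and 0 of 6 passed the test. Mvd, the mevalonate diphosphate decarboxylase that makes isopentenyl pyrophosphate, lay at 16.0, 22.7 and 18.7 FPKM in the control libraries 1 to 3 and at 15.1, 12.9 and 11.9 FPKM in the mutant libraries. Each mutant was below each control, by a margin of less than 1 FPKM between the highest mutant and the lowest control, and the log2 change was -0.50 ± 0.15 (unadjusted p = 0.01189, limma, n = 3 per group). Fdps, the farnesyl pyrophosphate synthase, lay at 36.8, 51.7 and 48.7 FPKM in the control libraries 1 to 3 and at 40.6, 37.3 and 29.5 FPKM in the mutant libraries. The groups overlapped in Fdps through control 1, and the log2 change was -0.35 ± 0.17. Idi1, the isomerase between them, lay at 38.2, 57.1 and 50.5 FPKM in the control libraries 1 to 3 and at 42.9, 43.6 and 33.0 FPKM in the mutant libraries. Control 1 was again among the mutants, and the log2 change was -0.28 ± 0.18.

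Pmvk, the phosphomevalonate kinase, gave 24.2 ± 3.52 FPKM across controls and 20.3 ± 0.600 FPKM across mutants (SD, n = 3 in each group here and in all such pairs). Mvk, the mevalonate kinase, gave 13.6 ± 1.01 FPKM across controls and 13.2 ± 2.84 FPKM across mutants. Acat2, the cytosolic thiolase that makes acetoacetyl-CoA, gave 31.7 ± 7.54 FPKM across controls and 30.6 ± 8.76 FPKM across mutants. Of these, Mvk and Acat2 differed between group means by less than 1 SD of either group. In both of them mutant 3 was the lowest of the 6 libraries, and without it their changes were above 0.

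Among the 11 enzymes from squalene to cholesterol, 8 had a lower and 3 a higher mean in mutants, with a median change of -0.12 (-0.04 without mutant 3), and 0 passed the test. Sqle, the squalene epoxidase and a rate-limiting enzyme of the sterol branch, lay at 30.05, 39.9 and 34.4 FPKM in the control libraries 1 to 3 and at 28.8, 26.4 and 18.0 FPKM in the mutant libraries. The mutants were all below the controls, mutant 3 furthest and control 2 highest. The log2 change was -0.52 ± 0.19 (unadjusted p = 0.02893, adjusted p = 0.9991, limma). An exact two-sided permutation test of its 3 against 3 values gave p = 0.1, the smallest that this design can give.

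Cyp51, the lanosterol demethylase, lay at 24.0, 31.3 and 29.3 FPKM in the control libraries 1 to 3 and at 22.5, 22.7 and 19.0 FPKM in the mutant libraries. The highest mutant was within 2 FPKM of the lowest control, and the log2 change was -0.39 ± 0.13 (unadjusted p = 0.02105, limma). Fdft1, the squalene synthase that commits farnesyl pyrophosphate to sterols, lay at 22.4, 27.6 and 23.8 FPKM in the control libraries 1 to 3 and at 24.0, 21.6 and 12.9 FPKM in the mutant libraries. Here mutant 3 alone was far below the other 5 libraries, which lay close together. Lss, the lanosterol synthase, gave 10.6 ± 2.97 FPKM across controls and 8.43 ± 1.57 FPKM across mutants, with control 2 highest and mutant 3 lowest.

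The 3 enzymes with a higher mean in mutants were Tm7sf2, a sterol C14 reductase, Nsdhl, a sterol 4-decarboxylating dehydrogenase, and Sc5d, the lathosterol desaturase. Tm7sf2 lay at 13.2, 13.6 and 13.2 FPKM in the control libraries 1 to 3 and at 16.6, 18.1 and 11.5 FPKM in the mutant libraries. The 3 controls were nearly equal, mutants 1 and 2 were above them and mutant 3 was below them. Without mutant 3 its log2 change was 0.37 rather than 0.18, with an unadjusted p of 0.0097 and an adjusted p of 0.3271 (limma). Sc5d lay at 42.0, 62.7 and 50.9 FPKM in the control libraries 1 to 3 and at 72.3, 63.7 and 36.2 FPKM in the mutant libraries, with mutants 1 and 2 above and mutant 3 below all controls. Nsdhl gave 16.9 ± 1.58 FPKM across controls and 19.1 ± 1.30 FPKM across mutants, with the groups overlapping.

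In the 4 remaining enzymes the groups overlapped. Ebp, the sterol isomerase, gave 54.9 ± 0.867 FPKM across controls and 51.3 ± 3.86 FPKM across mutants, and the 3 controls spanned less than 2 FPKM. Dhcr7, which makes the last reduction to cholesterol in one branch, gave 24.3 ± 7.84 FPKM across controls and 23.8 ± 6.12 FPKM across mutants. Sc4mol, the sterol methyl oxidase, gave 74.8 ± 10.8 FPKM across controls and 70.4 ± 20.8 FPKM across mutants, and Hsd17b7, a ketosteroid reductase, 7.92 ± 0.791 FPKM across controls and 7.06 ± 1.32 FPKM across mutants. The 95% interval of the log2 change ran from -0.33 to 0.13 in Ebp and from -0.67 to 0.63 in Dhcr7, so the data leave room for a change of up to about that size in either direction.

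Of the 5 regulators, 4 had a lower and 1 a higher mean in mutants, with a median change of -0.21, and 0 passed the test. Insig1, the sterol-induced anchor of Scap and itself an SREBP target, lay at 78.6, 93.0 and 76.8 FPKM in the control libraries 1 to 3 and at 86.6, 81.1 and 36.2 FPKM in the mutant libraries. Mutants 1 and 2 were within the control range and mutant 3 was below every other library, with the mean of mutants 1 and 2 at 2.31 times its level. The log2 change was -0.38 ± 0.33 (unadjusted p = 0.2989, limma; exact two-sided permutation p = 0.6), and without mutant 3 it was 0.02. The plot of single genes shows these points beside those of Sqle.

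Insig2, its paralog, gave 23.5 ± 5.09 FPKM across controls and 24.0 ± 2.18 FPKM across mutants, and the ratio of Insig1 to Insig2 was 4.41, 3.73 and 2.77 in controls and 3.50, 3.76 and 1.41 in mutants 1 to 3. Mutant 3 had the lowest of these ratios and the other 5 overlapped between the groups. Srebf2 lay at 31.7, 36.7 and 36.2 FPKM in the control libraries 1 to 3 and at 28.2, 28.4 and 33.5 FPKM in the mutant libraries. Its mutants 1 and 2 were below the controls, while mutant 3 lay among them, and the log2 change was -0.21 ± 0.11 (unadjusted p = 0.09838, limma).

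Srebf1 lay at 21.6, 30.2 and 13.0 FPKM in the control libraries 1 to 3 and at 19.8, 17.0 and 12.9 FPKM in the mutant libraries. Control 2 was highest and control 3 nearly as low as mutant 3, so the groups overlapped widely. The ratio of Srebf2 to Srebf1 was 1.47, 1.22 and 2.77 in controls and 1.42, 1.67 and 2.60 in mutants, so it was highest in both libraries numbered 3. Scap gave 13.8 ± 1.36 FPKM across controls and 12.3 ± 1.54 FPKM across mutants. Of the 2 further sterol-responsive genes, Stard4, a sterol transfer protein, gave 27.8 ± 6.72 FPKM across controls and 25.2 ± 4.51 FPKM across mutants, and Lpin1, a phosphatidate phosphatase, 1.94 ± 0.168 FPKM across controls and 1.91 ± 0.227 FPKM across mutants. The log2 change of Lpin1, -0.02, had the opposite sign under quantile scaling (0.01), without control 2 (0.02) and without mutant 2 (0.04).

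The 5 genes of fatty acid synthesis had a median change of -0.31 (-0.14 without control 2), 4 with a lower and 1 with a higher mean in mutants, and 0 passed the test. Fasn, the fatty acid synthase, lay at 9.64, 16.8 and 9.38 FPKM in the control libraries 1 to 3 and at 9.45, 7.70 and 7.46 FPKM in the mutant libraries. Control 2 stood above the other 5 libraries, and controls 1 and 3 lay beside mutant 1. Acaca, the acetyl-CoA carboxylase, lay at 2.11, 3.14 and 1.93 FPKM in the control libraries 1 to 3 and at 1.84, 1.87 and 1.68 FPKM in the mutant libraries. The mutants were below the controls by a small margin, with control 2 again highest. Acly, the ATP citrate lyase, gave 21.3 ± 4.25 FPKM across controls and 18.7 ± 1.48 FPKM across mutants.

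Scd1 and Scd2, paralogous stearoyl-CoA desaturases, had changes of opposite sign, neither past the test. Scd2 lay at 15.2, 56.6 and 15.7 FPKM in the control libraries 1 to 3 and at 14.7, 12.0 and 7.25 FPKM in the mutant libraries. Control 2 was at 3.67 times the mean of the other controls, while controls 1 and 3 were just above mutant 1. The log2 change was -1.10 ± 0.59 (unadjusted p = 0.116, limma) and -0.49 without control 2. Scd1 lay at 0.947, 2.22 and 1.23 FPKM in the control libraries 1 to 3 and at 2.26, 2.35 and 1.70 FPKM in the mutant libraries. Without control 2 its mutants were all above its controls, with a log2 change of 0.71 (unadjusted p = 0.0094, adjusted p = 1, limma), against 0.45 with it.

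The ratio of Scd2 to Scd1 was 16.1, 25.4 and 12.7 in controls and 6.52, 5.10 and 4.26 in mutants 1 to 3, so that the groups did not overlap. This was 1 of 3 ratios computed, was chosen after the values were seen, and got no test. How reads shared by these similar genes were divided is not given in the sources used here.

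**Figure D3:**
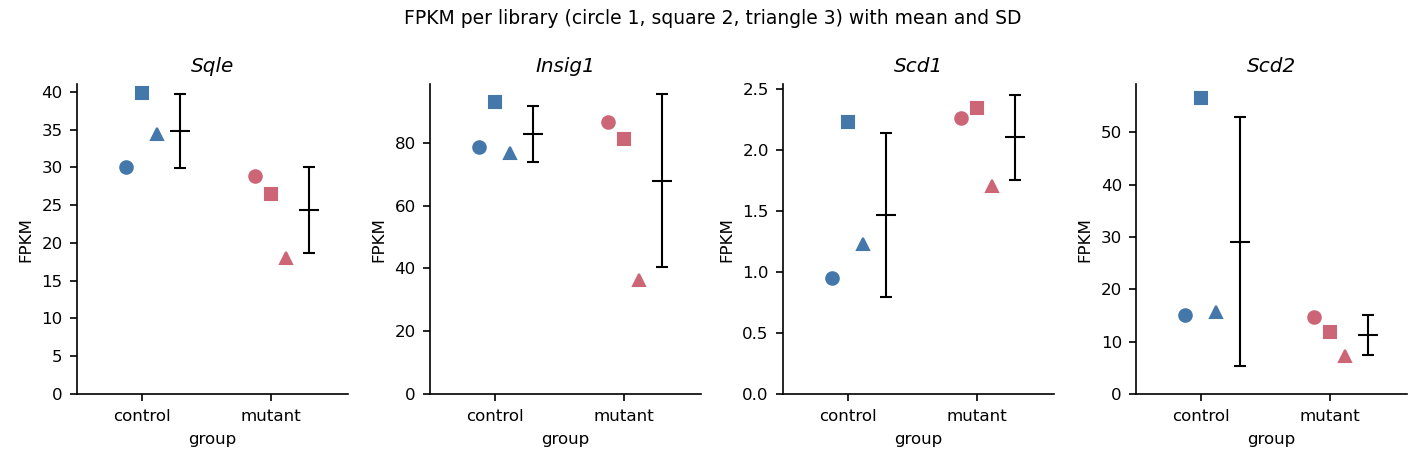
FPKM of single genes in the 3 control and 3 mutant libraries (circle 1, square 2, triangle 3), with the mean and SD of each group. Insig1 is low in mutant 3 alone, at 36.2 FPKM, and Scd2 is high in control 2 alone, at 56.6 FPKM.

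A pair of libraries stood apart in these genes. Mutant 3 was the lowest of the 6 in 20 of 29 genes, where it was lowest in 9.27% of all genes tested, and control 2 was the highest in 18 of 29, where it was highest in 28.2% of all. The median difference of the 29 genes from the control mean was -0.15, 0.19 and -0.01 in controls 1 to 3 and -0.04, -0.16 and -0.47 in mutants 1 to 3, on the log2 scale. Mutant 1 was therefore inside the range of the controls, mutant 2 just below it and mutant 3 well below it. Over all genes tested these medians lay between -0.09 (mutant 2) and 0.06 (mutant 3).

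Leaving out these libraries moved the set. Without mutant 3 the median change was -0.12, beside -0.06 over all genes tested, and 18 of 29 genes were lower in mutants. Without control 2 it was -0.11, beside -2e-04 over all genes tested, with 20 lower. Without both, the median was 0.02 with 14 of 29 lower, beside -0.04 over all genes tested. All remaining mutants lay below the remaining controls in 9 members (24.8% of all genes) and above them in 8 (17.8%). That pair was chosen after seeing these same values, as the lowest mutant and the highest control, so its removal had to shrink the difference and supports nothing further. The map of differences by gene and library shows the columns of control 2 and mutant 3.

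**Figure D4:**
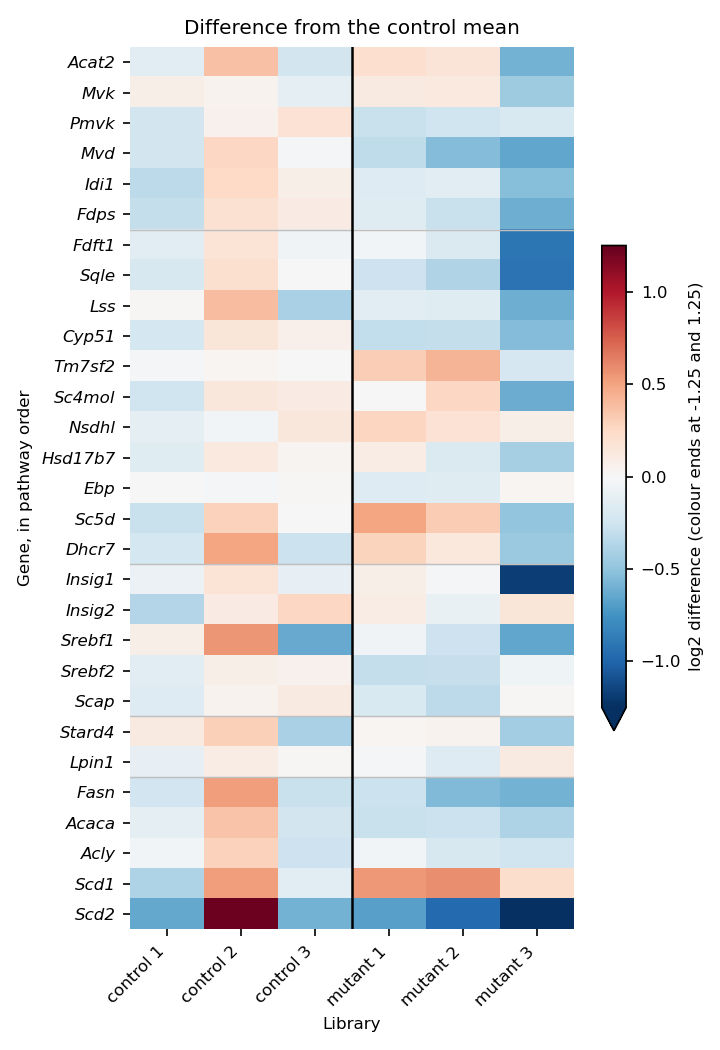
The log2 difference of each of the 29 genes from its control mean, with genes in pathway order down the side and the 6 libraries across. Mutant 3 is the lowest library in 20 genes and control 2 the highest in 18.

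Other properties of the libraries moved with these values, and their part in the results was not tested. In bulk RNA, fewer cells of a type and less RNA per cell cannot be told apart. Nkx2-2 itself lay at 1.13, 1.32 and 0.779 FPKM in the control libraries 1 to 3 and at 1.10, 0.736 and 0.221 FPKM in the mutant libraries, so over the whole gene model it was lowest in mutant 3, while mutant 1 lay within the control range. Its 2049-base isoform lay at 0.942, 1.07 and 0.464 FPKM in the control libraries and at 0.0803, under 0.01 and 0.130 FPKM in mutants 1 to 3, lower in all mutants. Xist, the transcript of the inactive X chromosome, was at 0.0894, 0.0229 and 0.0293 FPKM in the control libraries and 0.0177, 19.7 and 22.5 FPKM in mutants 1 to 3. Ddx3y, a gene of the Y chromosome, was at 11.4 to 13.8 FPKM in the controls and mutant 1 and below 0.05 FPKM in mutants 2 and 3. Both libraries with Xist were thus mutants, and the sex-linked difference and the genotype cannot be told apart in them; among the libraries without Xist there was 1 mutant.

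Markers of neighbouring tissue also differed between libraries. The 10 genes of the exocrine pancreas, led by Ctrb1 and Cela2a, summed to 17075, 16051 and 10550 FPKM in the control libraries. In mutants 1 to 3 they summed to 10236, 6367 and 2352 FPKM, and 0 of 10 passed the test. At an unadjusted p under 0.05 (limma), 5 were lower in mutants (Ctrb1, Cpb1, Cela3b, Cel and Prss2), where 1.63% of all genes tested were. The 8 genes of Brunner's glands and stomach summed to 2709, 8377 and 3115 FPKM in the control libraries and 4808, 1096 and 143 FPKM in mutants, led by Tff2 and Gkn3, with 0 of 7 tested passing and 1 (Pgc) lower at an unadjusted p under 0.05. Control 2 was highest and mutant 3 lowest in the second list, as in most sterol genes. Gkn1 and Gkn2, made by the stomach lining, were at 111 and 207 FPKM in control 2 and at most 0.792 and 1.28 FPKM in the other 5 libraries.

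The absorptive epithelium of the labelled tissue was plain in every library. The 8 enterocyte genes, led by Apoa1 and Apoa4, had medians of 0.18, 0.24 and -0.30 in controls and 0.33, 0.69 and -0.33 in mutants against the control mean, lowest in both libraries numbered 3. The 8 crypt proliferation genes, led by Pcna and Birc5, had medians of -0.11, 0.14 and -0.05 in controls and -0.51, -0.43 and 0.03 in mutants. In neither list did any gene pass the test. At an unadjusted p under 0.05 (limma) there were 0 enterocyte genes and 1 proliferation gene, Top2a, named after its value was seen. Top2a was lower in mutants, where 1.63% of all genes tested were. Of the 8 adipocyte markers, the most abundant were Cidec (77.1 to 146 FPKM over the 6 libraries) and Fabp4 (36.3 to 59.5 FPKM), and Lipe lay at 23.7 to 30.8 FPKM. Cfd lay at 0.536 to 2.24 FPKM, Retn reached 0.813 FPKM, Adipoq 0.698 FPKM, Plin1 0.208 FPKM and Lep 0.0308 FPKM. The list summed to 162 to 202 FPKM in controls and 165 to 226 FPKM in mutants, and 0 of 4 tested passed the test or had an unadjusted p under 0.05. The median changes were -0.07 in smooth muscle, 0.26 in hepatocyte, -0.26 in enteric neuron and glia, -0.07 in fasting and 0.33 in clock genes. In these lists 0 genes passed the test. At an unadjusted p under 0.05 (limma), 3 genes, Apoh, Dbp and Nr1d2, were higher in mutants, where 1.80% of all genes tested were. The plot of list medians sets the pancreas, Brunner gland and stomach, enterocyte and crypt proliferation lists beside the sterol genes.

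**Figure D5:**
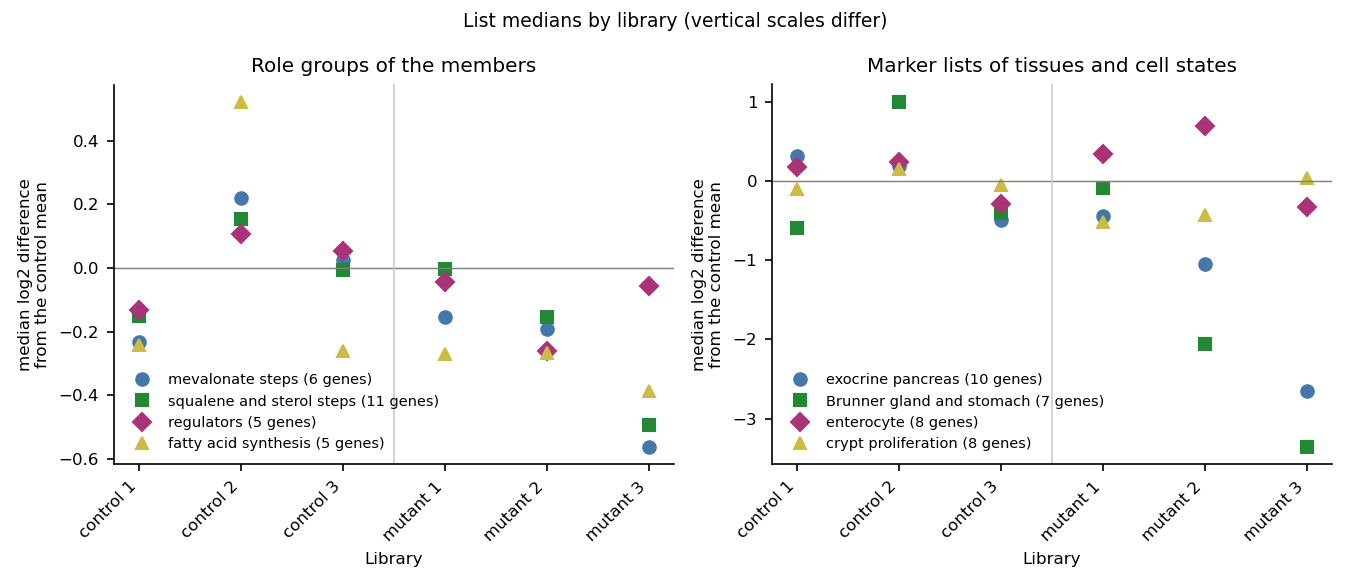
Median log2 difference from the control mean in each of the 6 libraries. The members are shown as mevalonate, squalene and sterol, regulator and fatty acid groups. Beside them are the pancreas, Brunner gland and stomach, enterocyte and crypt proliferation lists, and vertical scales differ between panels. In control 2 and mutant 3 the squalene and sterol genes are at 0.15 and -0.49 and the regulators at 0.11 and -0.06. The Brunner gland and stomach genes are at 1.00 and -3.36.

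Further genes of the pathway, which are not members, were read in the same fit. Of 17 genes of sterol synthesis, transport and SREBP control, 0 passed the test and the median change was -2e-04; the most abundant were Npc1l1, the cholesterol absorption receptor of the brush border, at 76.4 ± 5.17 FPKM across controls and 81.2 ± 11.9 FPKM across mutants, and Acat1, the mitochondrial thiolase, at 62.7 ± 4.99 FPKM across controls and 75.0 ± 5.01 FPKM across mutants. Of 8 LXR receptors and targets, the sterol-excess arm, 0 passed and the median was -0.09; Lpcat3, a phospholipid acyltransferase, gave 119.7 ± 1.52 FPKM across controls and 121 ± 6.97 FPKM across mutants, and Abcg5, a sterol exporter, 68.1 ± 1.22 FPKM across controls and 63.6 ± 6.30 FPKM across mutants. Of 15 tested lipogenic partners, 0 passed and the median was -0.07; Pgd, an NADPH source, gave 196 ± 26.3 FPKM across controls and 188 ± 10.4 FPKM across mutants, and Slc25a1, the citrate carrier, 118 ± 15.9 FPKM across controls and 117 ± 7.66 FPKM across mutants. At an unadjusted p under 0.05 (limma), 1.63% of all genes tested were lower and 1.80% higher. There were 1 lower and 1 higher in the first list, 0 in the second and 3 lower in the third. Among them, named after their values were seen, were Acat1 (higher) and Fads1, Fads2 and G6pdx (lower).

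Fads2, a desaturase of polyunsaturated fatty acids and an SREBP-1 target, lay at 46.0, 54.4 and 43.0 FPKM in the control libraries 1 to 3 and at 31.6, 27.0 and 39.9 FPKM in the mutant libraries. All mutants were below all controls, and here mutant 2 was lowest and mutant 3 closest to the controls. Its log2 change was -0.55 ± 0.16 (limma, adjusted p = 0.9991).

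Besides Hmgcs1, 7 members had more than 1 isoform, with 15 isoforms in all, of which 11 were tested. None of the 11 passed the test, where 1 of 16213 isoforms did (0.00617%), and 2 were lower in mutants at an unadjusted p under 0.05, the main isoform of Mvd and the longer isoform of Fdps, where 1.75% of all isoforms tested were, and 0 were higher, where 2.04% were. In 3 of the 11 the mutants lay below the controls without overlap, where 4.03% of all isoforms tested did. The 3 were both of those and the shorter isoform of Insig2 (1283 bases), which lay at 2.39, 2.49 and 2.84 FPKM in the control libraries 1 to 3 and at 1.06, 0.309 and 2.27 FPKM in the mutant libraries. The mutants were lower, mutant 2 furthest, and the log2 change was -1.02 ± 0.43 (unadjusted p = 0.05512, limma). The longer Insig2 isoform (2435 bases) carried most of the gene and lay at 15.4, 22.4 and 24.9 FPKM in the control libraries 1 to 3 and at 23.7, 21.3 and 23.5 FPKM in the mutant libraries, with the groups overlapping.

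In the authors' deposited table of group means, 0 of 29 members had an adjusted p under 0.05, where 26 of 18605 genes did (0.140%). In that deposited table by the authors, 22 members were lower and 7 higher in mutants, with a median log2 change of -0.15 against 0.0044 for all genes, and Mvd (p = 0.0179) and Sqle (p = 0.0338) had an unadjusted p under 0.05. For the single-isoform members, the authors' control mean count was at the median 96.7% of the fragments rebuilt here, but 9.2% for Idi1, 58.1% for Acaca, 63.9% for Acat2 and 76.3% for Insig1. For these 4 genes, chosen as the lowest after the values were seen, the authors' deposited counts rest on fewer fragments than their FPKM.

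Some members share ground with another gene model, and whether strand was used in counting is not given in the sources used here. Fdft1 overlaps Ctsb, Lss overlaps 4930483K19Rik, Tm7sf2 overlaps 1110014N23Rik and Srebf1 overlaps Rai1. Srebf2 holds Mir33 and Scd2 holds Mir5114. For these 6 members, reads of the overlapping stretch cannot be assigned with certainty.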

How the data were processed

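RNA of 3 control and 3 mutant duodenum samples was sequenced; groups follow the sample titles. Per the submitters' processing notes, the tools were CASAVA 1.8.2, TopHat, Cufflinks and DESeq, on mm9, with no options or roles given. Per the file headers, the authors deposited Cufflinks FPKM with interval bounds for each gene and isoform, and a coverage signal per isoform. The authors' deposited comparison table holds a normalized count signal averaged within each group, the fold change as a ratio and as log2, and raw and adjusted p-values.

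The members, lists and tests were chosen with earlier results of these data known. All 30 members are named; of other lists, those past the threshold, else the 2 of highest mean. log2(FPKM + 0.5) of the 13596 genes reaching 0.5 FPKM in 3 or more libraries was fitted with limma 3.58.1 (trend and robust prior, statmod 1.5.0, R 4.3.3) as a two-sided test; p-values were adjusted over all genes by Benjamini-Hochberg, with a threshold of 0.05; isoforms likewise. The fit was also run on simulated data, with noise independent between libraries and changes larger than most of those seen in the members. That run does not cover smaller changes or libraries whose values move together. Fold changes on this scale understate changes of low genes. Lists got counts and medians, no test. Fragments were rebuilt from the interval width, and 88.1% to 89.0% of low values came within 0.1 of a whole number. Exact tests were run in R. Fragment numbers, ratios, motif searches and plots used Python 3.11.15, pandas 2.3.3, numpy 2.4.6 and matplotlib 3.10.9. Deviations from the group means correlated at 0.26, 0.25 and 0.58 within same-numbered pairs, each over 0.1, which by the rule used treats the numbers as pairs. Control 1 also correlated with mutant 2 (0.30) and control 2 with mutant 1 (0.19), so numbers 1 and 2 are not told apart by these values, and no label states what a number stands for. Changes, standard errors, intervals and p-values of single genes came from the fit without the replicate number as a block, except where the block is named. The alternatives were other pseudocounts, filters, scalings and priors, library weights, the replicate block and leaving out libraries.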

Additional observations from a re-analysis of the deposited data

How the results depend on the processing

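Of the 493 values that single members took in other settings, 484 stayed within the spread of their replicates and 9 moved beyond it. Other filters, other priors and the replicate block leave a log2 change as it is, so the values of those settings had to stay. Of the 9 that moved, that of Hsd17b7 came with library quality weights and the rest without control 2 and mutant 3 together. None of the 493 passed the adjusted threshold, and 13 members changed sign in at least 1 setting. The count of all genes past the threshold was 3, and it was 1 without a filter, 1 with upper quartile scaling, 19 with library quality weights and 0 to 63 when 1 library was left out. With the replicate block it was 22, and the block changed no call among the members. When 1 library was left out, the members without overlap numbered 5 to 10 lower and 0 to 5 higher. The shares over all genes ran from 4.56% to 21.2% and from 6.04% to 11.1%, and the ends of counts and shares do not match. The 10 lower stood beside 10.2% or 9.47%, the 21.2% beside 9 lower, and the 5 higher beside 10.9%. Without control 2 and mutant 3 together, a setting added after seeing the data, 46 genes passed, and 9 members were lower and 8 higher without overlap, where 24.8% and 17.8% of all genes were. The causes were not tested. Of the members with 1 isoform, Scd1 rests on the fewest fragments (114 to 258 per library), and with 3 libraries a group a member not called may still differ.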

Other observations

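Me1, the cytosolic malic enzyme that supplies NADPH for lipid synthesis, was singled out among the lipogenic partners after its values were seen. It lay at 41.3, 37.4 and 33.2 FPKM in the control libraries 1 to 3 and at 113, 106 and 24.2 FPKM in the mutant libraries. Mutants 1 and 2 were far above all controls and mutant 3 was below them, so the groups overlapped, and the log2 change was 0.83 ± 0.63 (unadjusted p = 0.2422, limma).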
